A study of Mus musculus with 8 samples.

Results

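The genes described here are the TREM receptors Trem2, Trem1, Treml2 and Treml4, the transmembrane adaptors Tyrobp (DAP12) and Hcst (DAP10), the enzymes Plcg2 and Inpp5d that act below them, and the inhibitory receptor Lilrb4a. They were measured in microglia, brain macrophages sorted here by high CD11b and intermediate CD45, from mice lacking multifunctional protein-2 (MFP2) and from controls. MFP2 is the product of Hsd17b4 and shortens very-long-chain fatty acids in peroxisomes. All 9 named genes were measured, among 19938 genes tested, each by 1 probe set whose annotation carries that gene symbol alone. The 4 knockout samples have the genotype label MFP2 knockout, and the 4 control samples have the label wild type. All 8 are labelled as female Swiss Webster mice of 17 weeks, without a further allele or treatment. The labels state neither how Hsd17b4 was disrupted nor that each array holds a separate animal. The p-values therefore cover only sample-to-sample spread, part of which may be technical.

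TREM receptors are immunoglobulin-like proteins of myeloid cells. Trem2 has a short tail of its own and signals through DAP12, whose cytoplasmic tyrosine motif (an ITAM) recruits the kinase Syk, while DAP10 carries a motif that recruits phosphoinositide 3-kinase (PI3K). Below Syk, phospholipase C gamma 2 (Plcg2) cleaves a membrane phosphoinositide to raise calcium, and the phosphatase SHIP1 (Inpp5d) removes a phosphate from the product of PI3K and so limits the signal. Lilrb4a carries inhibitory motifs that recruit phosphatases. In microglia, Trem2 and DAP12 are known for sensing lipids, lipoproteins and dying cells and for the response to damaged myelin and protein deposits.

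Values are log2 expression after the RMA procedure, so a difference of 1 is a 2-fold change, and differences are knockout minus control. The number of arrays limits the precision of every comparison. The check of the genotype label held: Hsd17b4 was at 7.82 to 9.09 in controls and at 4.76 to 7.20 in knockouts, with knockout 2 highest among the latter. The median of an array lay between 6.03 and 6.15. Control 1 carried Y-linked signal and low Xist against its female label. Control 3 was the control array nearest to the knockouts on the first principal component (-9.62, the others -24.7 to -23.2). For the 9 genes, results without these arrays are given where they change a call. Over all genes, 9.55% passed the test (limma, Benjamini-Hochberg adjusted p under 0.05), 5.38% higher and 4.17% lower in knockouts. The 832 lower calls behind the last share were 507 without knockout 3, 517 without control 2 and 544 without control 1, and quantile normalization gave 1086 higher and 1149 lower calls in place of 1073 and 832. Genes that mark microglia were present at high levels in both groups, and 7 of 9 of them fell. The log2 of their summed linear values was 14.9 to 15.1 in control arrays and 14.4 to 14.6 in knockout arrays. Because the RNA comes from sorted pools of cells, fewer cells of a type and less RNA per cell cannot be told apart.

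Of the 9 genes, 3 were higher in knockouts (Lilrb4a, Hcst and Treml2), 1 was lower (Inpp5d) and 5 did not pass the test (Trem2, Tyrobp, Plcg2, Trem1 and Treml4). Lilrb4a changed by 2.93-fold and the other called genes by 1.35-fold to 1.52-fold. The background shares to set beside these counts are the 5.38% and 4.17% of all genes called higher and lower. At an adjusted p under 0.01, Lilrb4a alone was called. Without control 3 and knockout 2, the same 4 genes were called, and without control 1 as well, Treml2 and Lilrb4a were called. Among the 9 genes the groups did not overlap for Trem2, Tyrobp, Hcst and Lilrb4a, all higher in knockouts, and for Inpp5d, lower in knockouts. Over all genes, 7.09% were higher and 6.92% lower without overlap.

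**Figure D1:**
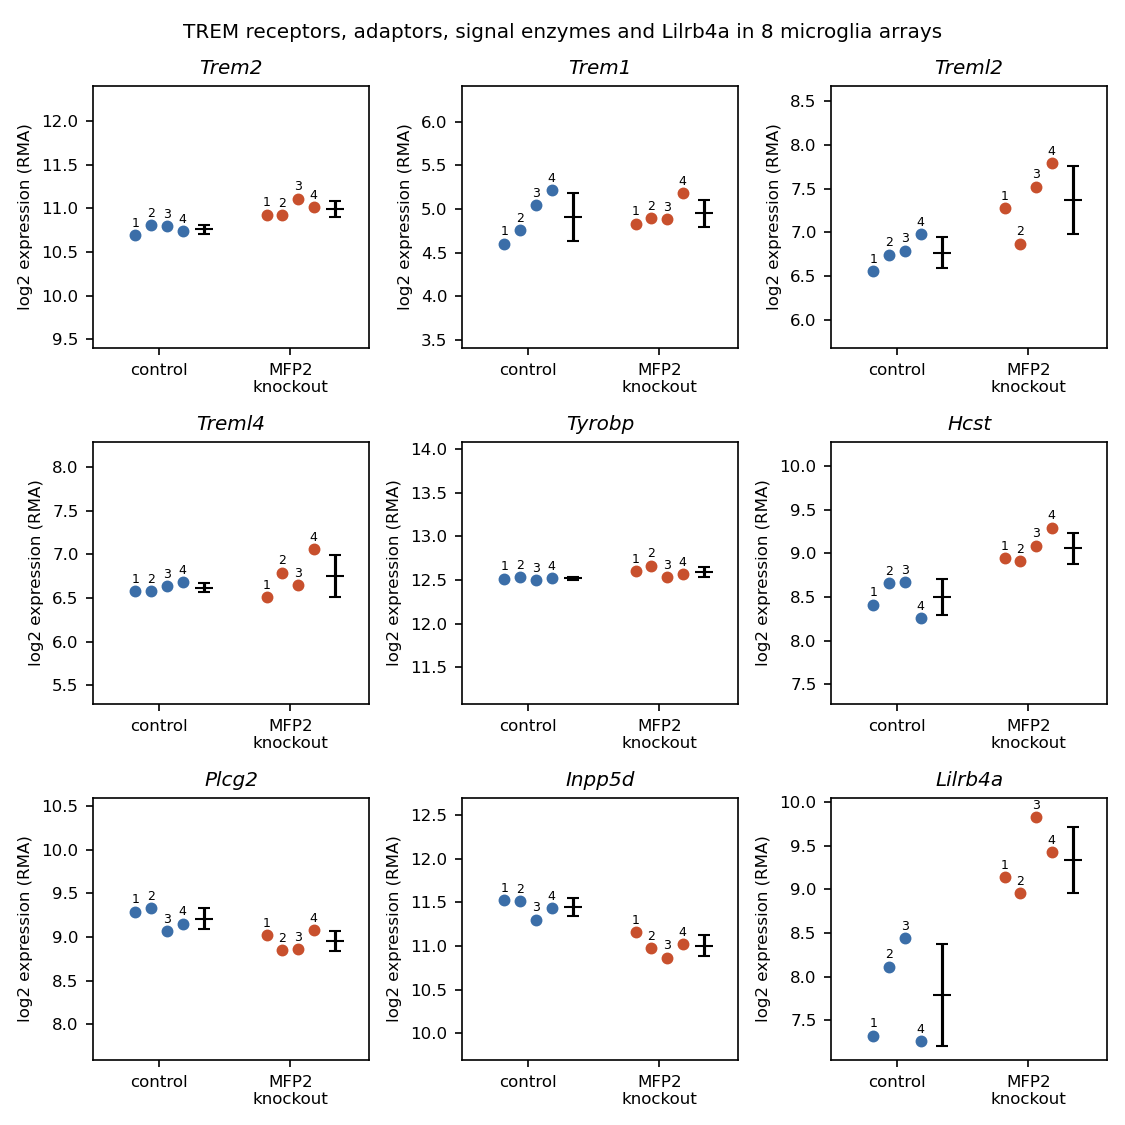
Log2 expression of the 9 genes in each array (points, numbered by replicate; blue control, orange MFP2 knockout), with the mean and SD of 4 arrays per group beside them; every panel spans the same range of the log2 axis. Lilrb4a shows the widest separation, from 7.79 to 9.34 on average, while Tyrobp lies between 12.50 and 12.66 in all arrays.

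Trem2, the receptor for lipids and apolipoproteins (probe set 10445781), was at 10.69, 10.81, 10.80 and 10.74 in control 1 to control 4. It was at 10.93, 10.92, 11.11 and 11.02 in knockout 1 to knockout 4. Every knockout array was above every control array, by a margin of 0.12 between the nearest arrays. The mean was 10.76 ± 0.05 (SD, n = 4) in controls and 11.00 ± 0.09 in knockouts, a difference of 0.23 ± 0.08 (SE) or 1.18-fold, with a 95% confidence interval of 0.05 to 0.42. It did not pass the test (limma adjusted p = 0.111). The exact two-sided permutation test on Trem2 alone gave 0.0286, the smallest p that 4 against 4 arrays allow, without adjustment for the other genes. The size of the difference rested on the scaling. It was 0.05 after quantile normalization (adjusted p = 0.771) and 0.02 after cyclic loess (adjusted p = 0.932). It was 0.20 to 0.26 with any single array left out.

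The 4 named genes whose profile over the 8 arrays was nearest to that of Trem2, by root mean square difference after centring each gene, were Efr3b (0.038), Cep19 (0.039), Pip4k2b (0.041) and Homer1 (0.044). Their differences were 0.27, 0.20, 0.24 and 0.17, and none of the 4 passed the test. Values near that of Trem2 follow from the way these genes were picked.

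The region before the transcription start of Trem2 is shown with those of Hcst and Inpp5d, which were called in opposite directions. Sequences are from RefSeq on GRCm38.p6 and run from 250 bases before to 50 bases after the start, 5′ to 3′ on the gene's strand. Of the 9 genes, 6 had such a sequence (Trem2, Trem1, Treml4, Hcst, Plcg2 and Inpp5d). Capitals mark AGGAAGT, a form of the core bound by ETS factors such as the myeloid regulator PU.1, or its reverse complement ACTTCCT; the motif was chosen with the sequences in view.
Trem2 (chr17:48346151-48346450, plus strand): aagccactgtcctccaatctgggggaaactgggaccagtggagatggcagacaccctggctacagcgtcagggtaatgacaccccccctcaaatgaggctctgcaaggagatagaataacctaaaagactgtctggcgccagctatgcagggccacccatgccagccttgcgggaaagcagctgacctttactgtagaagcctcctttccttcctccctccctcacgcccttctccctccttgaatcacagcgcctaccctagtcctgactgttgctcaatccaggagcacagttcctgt
Hcst (chr7:30419805-30420104, minus strand): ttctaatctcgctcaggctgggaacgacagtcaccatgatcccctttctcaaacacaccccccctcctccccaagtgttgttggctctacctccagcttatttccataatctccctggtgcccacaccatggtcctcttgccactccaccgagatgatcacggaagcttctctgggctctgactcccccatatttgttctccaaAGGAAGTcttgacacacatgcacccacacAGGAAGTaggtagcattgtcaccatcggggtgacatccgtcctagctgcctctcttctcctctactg
Inpp5d (chr1:87620062-87620361, plus strand): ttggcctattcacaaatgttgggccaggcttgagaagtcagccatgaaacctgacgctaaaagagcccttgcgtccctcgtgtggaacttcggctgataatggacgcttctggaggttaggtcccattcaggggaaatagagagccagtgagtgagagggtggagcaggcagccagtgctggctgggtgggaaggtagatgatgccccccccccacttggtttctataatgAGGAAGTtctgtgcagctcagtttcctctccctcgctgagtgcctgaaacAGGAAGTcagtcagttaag
The Hcst window held the motif at 46 and at 17 bases before the start, and the Inpp5d window held it at 19 bases before and at 31 bases after the start. The Trem1 window held it once, on the reverse strand, and the windows of Trem2, Treml4 and Plcg2 did not hold it. Among 32851 windows of the same length, 9.35% held it on either strand.

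Trem1, which amplifies inflammatory signals in neutrophils and monocytes (probe set 10445746), did not differ beyond the spread of the arrays. It was at 4.60, 4.76, 5.04 and 5.21 in controls and at 4.83, 4.90, 4.89 and 5.18 in knockouts, so the groups overlapped. Its mean over the 8 arrays, 4.93, was below the median gene mean of 6.24. Trem1 was thus a dim gene, not tested with dim genes left out. RMA can compress differences of dim genes, so a change of Trem1 may be missed. The difference was 0.05 ± 0.13 (SE, 95% confidence interval -0.25 to 0.34, adjusted p = 0.908). Its direction turned without control 1 (-0.055), control 2 (-0.0027) or knockout 4 (-0.03). Control 3 and control 4, the control arrays highest in Trem1, were also the control arrays highest in the neutrophil marker Ly6g (8.15 and 7.47, against 5.69 and 6.16 in control 1 and control 2). In the knockout arrays the order differed between neutrophil markers. Knockout 1, the lowest in Trem1, was the knockout array highest in Ly6g (6.78) but lowest in S100a8 (11.20). Knockout 4, the highest in Trem1, was at 6.16 in Ly6g, 11.59 in S100a8 and 11.66 in S100a9. Knockout 2 was the knockout array highest in S100a8 (12.12) and in S100a9 (11.95). The log2 summed level of 12 neutrophil markers was 11.6 to 14.3 in controls and 12.8 to 13.7 in knockouts, with 0 of 12 called, and its part in the values of Trem1 was not tested.

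Treml2, a TREM-like receptor of granulocytes, macrophages and B cells (probe set 10445767), was higher in knockouts. It was at 6.55, 6.74, 6.79 and 6.98 in controls and at 7.28, 6.87, 7.52 and 7.79 in knockouts. Knockout 2 lay below control 4, so the groups overlapped, and the other knockout arrays lay above all controls. The difference was 0.60 ± 0.17 (SE), or 1.52-fold (adjusted p = 0.0423). This call was the least stable of the 4. It was lost without control 1, control 2, control 3, knockout 1, knockout 3 or knockout 4 (adjusted p = 0.0568 to 0.122), and the exact permutation test on Treml2 alone gave 0.0571. Of the 5 B cell markers measured 0 were called, and their log2 summed level was 8.16 to 8.56 in controls and 8.26 to 8.83 in knockouts. The part of B cells and neutrophils in the difference was not tested.

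Treml4, a TREM-like protein of myeloid cells that binds dying cells (probe set 10445758), was at 6.58, 6.58, 6.64 and 6.68 in controls. It was at 6.51, 6.79, 6.65 and 7.06 in knockouts. The knockout arrays spread wider, on either side of the controls, and the difference of 0.13 ± 0.11 (SE, 95% confidence interval -0.11 to 0.38) did not pass the test (adjusted p = 0.589).

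The TREM genes lie next to each other on chromosome 17 in the RefSeq gene order of GRCm38.p6. From Trem1 to Nfya, Treml2 was called higher and Trem3 lower, the other measured genes were not called, and differences between neighbours were not tested apart from the pair of Trem2 and Trem1. Trem3, the neighbour between Trem1 and Treml4 and a DAP12-coupled activating receptor in mice, fell by 0.52 ± 0.09 (SE, adjusted p = 0.00284). Its values were 6.04, 6.01, 6.16 and 6.25 in controls and 5.60, 5.69, 5.54 and 5.54 in knockouts, without overlap. B430306N03Rik, which lies between Treml2 and Trem2 and carries Treml6 as an older name, differed by 0.55 ± 0.17 and did not pass the test (adjusted p = 0.0662). Treml1, a receptor of platelets on the far side of Trem2, differed by -0.06 ± 0.10 (adjusted p = 0.814). Of the 4 TREM relatives measured besides the receptors above, Trem3 was lower and 0 were higher, or 1 higher without control 3, with dim genes left out and with array weights. Trem3 itself was among the dim genes left out, so 0 were lower there.

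**Figure D2:**
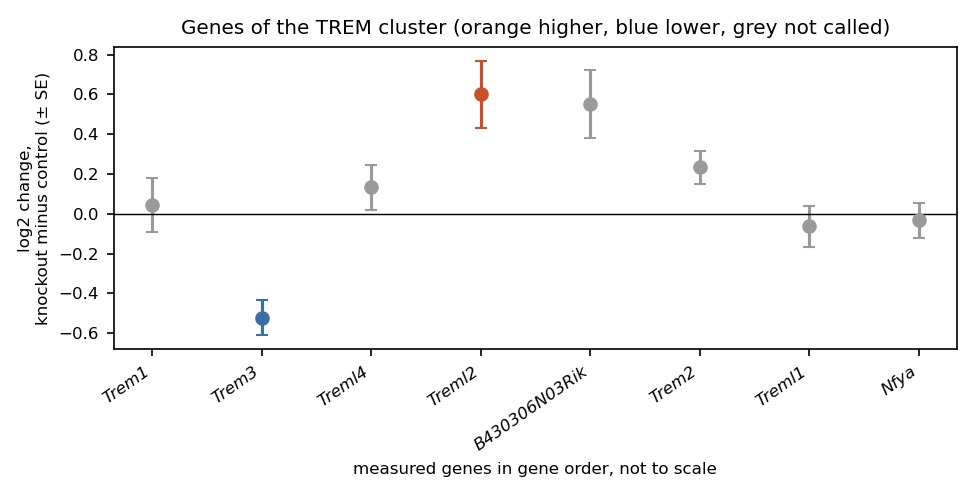
Log2 change (knockout minus control, points, ± SE of the limma fit) of the measured genes from Trem1 to Nfya on chromosome 17, in gene order and not to scale; orange is called higher, blue lower and grey not called. Treml2 at 0.60 and Trem3 at -0.52 are the called genes, and Trem2 at 0.23 lies between 2 uncalled neighbours.

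Tyrobp, the DAP12 adaptor through which Trem2 signals (probe set 10551883), was nearly level across the 8 arrays. It was at 12.52, 12.53, 12.50 and 12.52 in controls and at 12.60, 12.66, 12.53 and 12.57 in knockouts. The lowest knockout array exceeded the highest control array by 0.001, a separation with no margin. The difference was 0.07 ± 0.08 (SE, 95% confidence interval -0.09 to 0.24, adjusted p = 0.676), positive as deposited and with arrays centred on their medians (0.08), and negative under the other scalings run: -0.10 after quantile normalization (adjusted p = 0.551) and -0.33 after cyclic loess, where it was called lower (adjusted p = 0.0494). Quantile normalization and cyclic loess lowered knockout against control values for bright probe sets as a class. For the 52 genes with a mean of at least 12, the median difference was 0.08 as deposited, -0.10 after quantile normalization and -0.31 after cyclic loess. For all genes it was -0.02, -0.02 and -0.01. The direction of change of Tyrobp is therefore not settled by these values.

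Hcst, the DAP10 adaptor, which pairs with the receptor NKG2D and can join DAP12 complexes (probe set 10561920), was higher in every knockout array. Controls were at 8.41, 8.66, 8.67 and 8.26 and knockouts at 8.95, 8.91, 9.09 and 9.29. The groups were separated by 0.24 between the nearest arrays. The mean rose from 8.50 ± 0.20 (SD, n = 4) to 9.06 ± 0.18, a difference of 0.56 ± 0.12 (SE) or 1.47-fold (adjusted p = 0.0112). The call held without any single array (adjusted p = 0.0112 to 0.0389) and was missed without control 1, control 3 and knockout 2 together (0.65, adjusted p = 0.0506). NK and T cells also express Hcst. Of 10 NK and T cell markers 0 were called, and their log2 summed level was 8.91 to 9.64 in controls and 9.17 to 9.91 in knockouts. Knockout 2, the knockout array lowest in Hcst, was the highest of all arrays in the T cell genes Cd3e (8.11) and Cd3g (8.07). Knockout 4, the highest in Hcst, was the next highest in Cd3g (7.74), but in Cd3e it was at 7.72, below control 3 (7.77). In the dim NK cell gene Ncr1, knockout 4 was the highest of all arrays (4.17) and knockout 2 the next (4.07). The part of NK and T cells in the Hcst difference was not tested.

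Hcst and Tyrobp are immediate neighbours on chromosome 7. The within-array difference of Hcst and Tyrobp was larger in knockouts by 0.48 ± 0.15 (SE), and by 0.89 after cyclic loess. The exact two-sided permutation test gave p = 0.0286 (adjusted over 5 pairs p = 0.0476, higher in 4 of 4 knockout arrays). That p is the smallest that 4 against 4 arrays allow, and its adjusted value depends on which other pairs were tested. The genes were chosen with earlier results of these data known, so the pair values are a description. The within-array difference of Trem2 and Tyrobp was larger in knockouts by 0.16 ± 0.08 (SE) and did not pass (exact permutation p = 0.0857, adjusted p = 0.107). That of Trem2 and Trem1 differed by 0.19 ± 0.15 (exact permutation p = 0.257, adjusted p = 0.257), and by -0.01 after quantile normalization and -0.055 after cyclic loess. Trem1 was dim, so the limit given for it above holds for this pair.

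Plcg2, the phospholipase that turns Syk activity into a calcium signal (probe set 10575799), was at 9.29, 9.33, 9.07 and 9.15 in controls and at 9.02, 8.85, 8.86 and 9.08 in knockouts. Knockout 4 lay just above control 3, and the other knockout arrays lay below all controls. The difference was -0.26 ± 0.10 (SE, 95% confidence interval -0.46 to -0.05) and did not pass the test (adjusted p = 0.131). After quantile normalization (-0.29, adjusted p = 0.0396) and cyclic loess (-0.29, adjusted p = 0.0361) it was called lower.

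Inpp5d, encoding SHIP1 (probe set 10348244), was lower in every knockout array. Controls were at 11.52, 11.51, 11.30 and 11.43 and knockouts at 11.16, 10.97, 10.86 and 11.02. The nearest arrays of the groups, control 3 and knockout 1, were 0.14 apart. The mean fell from 11.44 ± 0.10 (SD, n = 4) to 11.00 ± 0.12, a difference of -0.44 ± 0.09 (SE), or 1.35-fold (adjusted p = 0.0107). It was called without any single array (adjusted p = 0.00898 to 0.0417) and missed without control 1, control 3 and knockout 2 together (-0.46, adjusted p = 0.0889). It was -0.77 after quantile normalization, -0.69 after cyclic loess and -0.43 with arrays centred on their medians. Within arrays, the value of Inpp5d minus that of Plcg2, which was not called, was lower in knockouts by 0.18 ± 0.05 (SE, exact permutation p = 0.0286, adjusted p = 0.0476).

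Lilrb4a, an immunoglobulin-like receptor with inhibitory motifs (probe set 10363082), had the highest increase of the 9 genes. Controls were at 7.32, 8.11, 8.44 and 7.26 and knockouts at 9.14, 8.96, 9.82 and 9.42. Controls fell into a lower pair, control 1 and control 4, and a higher pair, control 2 and control 3, and all knockout arrays lay above both pairs, by at least 0.52. The mean rose from 7.79 ± 0.58 (SD, n = 4) to 9.34 ± 0.38, a difference of 1.55 ± 0.26 (SE) or 2.93-fold (adjusted p = 0.00237). The difference stayed between 1.38 and 1.89 in all alternatives run. Within arrays, the value of Lilrb4a minus that of Trem2, which was not called, was higher in knockouts by 1.32 ± 0.31 (SE, exact permutation p = 0.0286, adjusted p = 0.0476).

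Lilr4b, the adjacent and closely related gp49 gene on chromosome 10, rose as well, from 7.30, 7.63, 7.74 and 7.49 in controls to 8.30, 8.19, 8.68 and 8.61 in knockouts. The groups did not overlap, and the difference was 0.91 ± 0.13 (SE, adjusted p = 0.00105). How far the probe sets of Lilrb4a and Lilr4b bind each other's transcript was not tested. The named genes nearest to Lilrb4a in profile over the 8 arrays were Nceh1 (root mean square difference 0.23), Trpc4 (0.24), C3ar1 (0.24) and Ly9 (0.24), all called higher, by 1.73, 1.74, 1.53 and 1.75. They were picked by closeness to Lilrb4a in these same arrays, so a similar change follows from the selection.

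**Figure D3:**
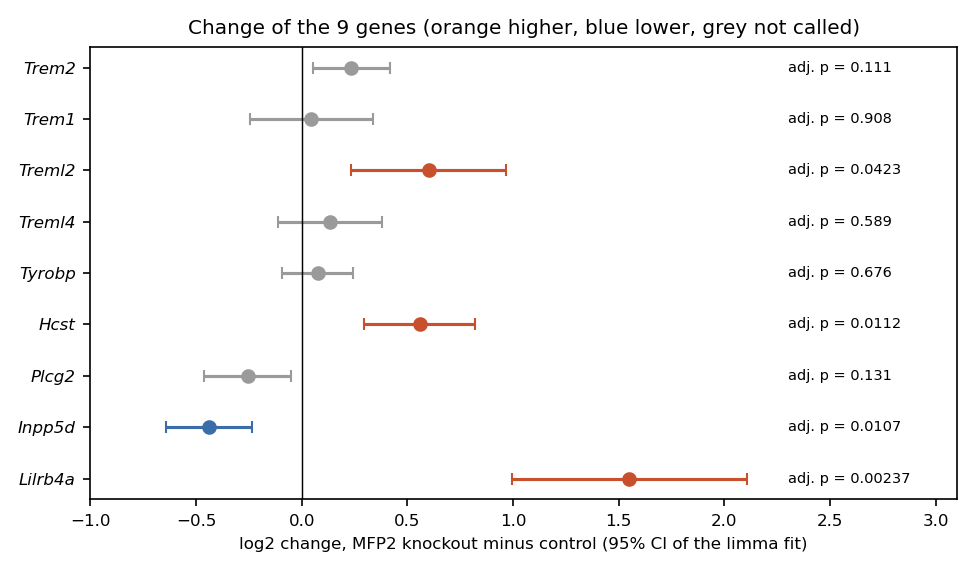
Log2 change of each gene (point) with the 95% confidence interval of the limma fit and the adjusted p; orange is called higher, blue lower and grey not called. The intervals of Trem2 (0.05 to 0.42) and Plcg2 (-0.46 to -0.05) lie on 1 side of 0 although neither gene passed after adjustment over 19938 genes.

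**Figure D4:**
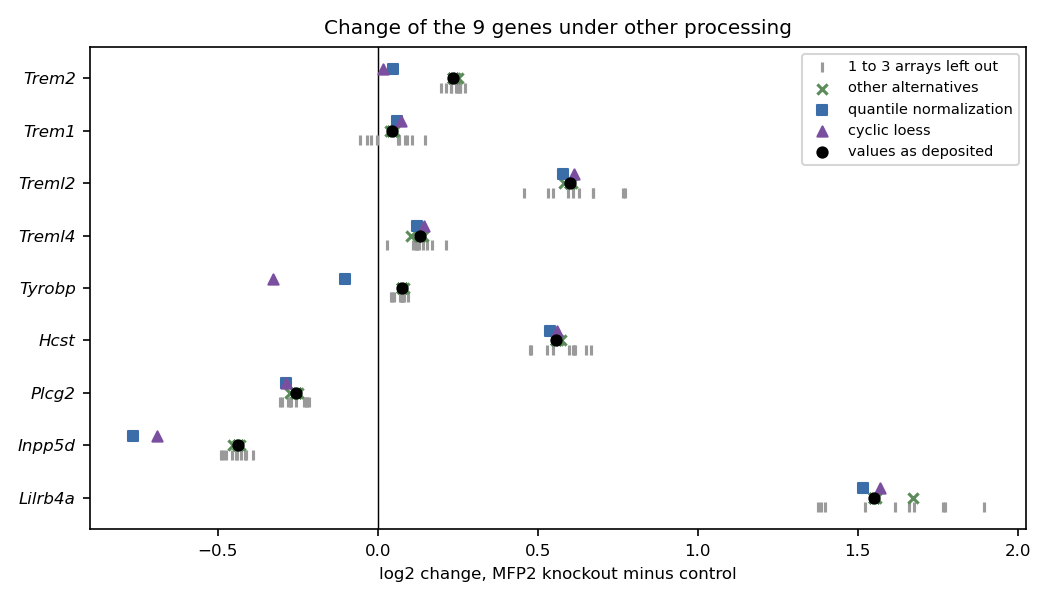
Log2 change of each gene as deposited (black), after quantile normalization (blue squares), after cyclic loess (purple triangles), with 1 to 3 arrays left out (grey bars) and under the other alternatives (green crosses). Tyrobp moves from 0.07 to -0.33 and Trem2 from 0.23 to 0.02 with the scaling, while Lilrb4a, Hcst and Treml2 stay on the same side of 0.

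The other genes of the pathway were described by 11 lists of 154 symbols. Ubash3b was listed under its own symbol and again as Sts1, and was counted as measured under its own symbol alone. Besides the 9 genes above, 132 listed genes were measured. Of these 30 were higher and 14 lower, 33.3% called, beside 9.55% of all 19938 genes (5.38% higher and 4.17% lower). Their median difference was 0.10 against -0.02 over all genes. The same shares are the background of each list count that follows. The lists include genes known from earlier results of these data, so their counts are a description.

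Of 14 measured receptors listed as linked to DAP12 or DAP10, 11 were not called, 1 was higher and 2 were lower, with a median of 0.11. Some of them, such as Csf1r, do not bind these adaptors directly. The single higher receptor is a share near the 5.38% of all genes. Cd200r4, an activating relative of the CD200 receptor, rose from 4.54, 4.81, 5.52 and 4.44 in controls to 6.76, 6.96, 7.22 and 6.90 in knockouts, by 2.13 ± 0.20 (SE, adjusted p = 0.000209). Siglech, a sialic acid receptor of microglia that pairs with DAP12, fell by 0.87 ± 0.13 (adjusted p = 0.00108), and the growth factor receptor Csf1r by 0.35 ± 0.08 (adjusted p = 0.0197). The call of Csf1r was lost without control 1, control 2 or knockout 3 (adjusted p = 0.0529 to 0.0708). The count of higher receptors was 2 without knockout 1 and 2 without control 3 and knockout 2 together. It was 0 with dim genes left out, where Cd200r4 is not tested. Klrk1, which encodes NKG2D, the receptor of Hcst, was not called (0.12 ± 0.14, adjusted p = 0.701). It was dim, with means of 4.52 in controls and 4.65 in knockouts.

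Of 7 other ITAM adaptors 0 were called, with a median of 0.35. Fcer1g, the Fc receptor gamma chain and the other main ITAM adaptor of myeloid cells, differed by 0.10 ± 0.09 (SE, adjusted p = 0.640). Cd3g, a T cell receptor chain, had the lowest p of the list (1.02 ± 0.34, adjusted p = 0.0859) and was called higher without control 3 or knockout 3 (adjusted p = 0.0274 and 0.0420). The count was 2 without control 3 and 1 without knockout 1 or knockout 3.

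Among the LILR, PIR and LAIR receptors, listed together with Pilra of another family, 3 of 6 measured were higher and 0 lower, with a median of 0.44. Besides Lilr4b these were Pirb, an inhibitory receptor for class I molecules (0.74 ± 0.18, SE, adjusted p = 0.0218), and the inhibitory receptor Pilra (0.78 ± 0.21, adjusted p = 0.0365). Lilr4b was called without any single array, but Pirb was lost without control 1, control 2, control 4, knockout 1 or knockout 3 (adjusted p = 0.0524 to 0.0695). Pilra was lost without control 1, control 2, control 4, knockout 3 or knockout 4 (adjusted p = 0.0570 to 0.102). The count was 1 without control 1, control 2, control 4 or knockout 3, and 1 receptor was lower in 5 alternatives: quantile normalization, cyclic loess, dim genes left out, an intensity trend with a robust prior, and array weights.

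Of 20 measured kinases and adaptors that act on or below the ITAM, 16 were not called, 2 were higher and 2 were lower, with a median of -0.01. Over all genes, 5.38% were higher and 4.17% lower. Syk, the kinase that docks on the DAP12 ITAM, was at 9.09, 8.99, 8.73 and 9.06 in controls and at 8.53, 8.53, 8.48 and 8.31 in knockouts, without overlap. It fell by 0.50 ± 0.10 (SE, adjusted p = 0.00775). Lcp2, the scaffold SLP-76, fell by 0.34 ± 0.08 (adjusted p = 0.0208). The Src-family kinases Fgr (1.14 ± 0.18, adjusted p = 0.00197) and Fyn (0.68 ± 0.14, adjusted p = 0.0103) rose. Lcp2 was lost without control 2, control 4 or knockout 3 (adjusted p = 0.0542 to 0.0711), which left 1 lower gene in each case. Fyn was missed without control 1, control 3 and knockout 2 together (adjusted p = 0.111), where 1 gene was higher and 1 lower.

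In the PI3K, calcium and CARD9 arm 5 of 21 were lower and 0 higher, with a median of -0.22. Itpr2, an intracellular calcium channel opened by the product of Plcg2, fell by 0.55 ± 0.09 (SE, adjusted p = 0.00284), and the PI3K subunits Pik3r1 by 0.54 ± 0.10 (adjusted p = 0.00510) and Pik3cg by 0.43 ± 0.09 (adjusted p = 0.00664). Rasgrp3, an activator of Ras (-0.38), and the PI3K catalytic subunit Pik3ca (-0.36) completed the count and were the least stable. The count was 3 without control 1, control 2, control 4, knockout 3 or knockout 4. It was 2 without control 1, control 3 and knockout 2 together, where Pik3cg was also missed (adjusted p = 0.0554). Among 14 measured phosphatases and other brakes besides Inpp5d, 3 were lower and 0 higher. Pag1, which anchors the inhibitory kinase Csk, fell by 0.76 ± 0.10 (SE, adjusted p = 0.000763), the ubiquitin ligase Cbl by 0.48 ± 0.10 (adjusted p = 0.00929) and the phosphatase Ubash3b, which acts on Syk, by 0.34 ± 0.09 (adjusted p = 0.0392). The call of Ubash3b needed every array except control 3 and knockout 2 (without 1 of the others, adjusted p = 0.0817 to 0.114). Cbl was missed without control 1, control 3 and knockout 2 together (adjusted p = 0.0541), where 1 of these brakes was lower.

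Of 15 measured reported ligands, 4 were higher, 1 was lower and 10 were not called, with a median of 0.17. Sema6d, a semaphorin whose receptor complex can include Trem2 and DAP12, fell by 2.05 ± 0.26 (SE, adjusted p = 0.000574). The galectin Lgals3 rose by 1.01 ± 0.15 (adjusted p = 0.00111), fibronectin Fn1, a ligand of Lilrb4a, by 2.56 ± 0.51 (adjusted p = 0.00747) and Apoe, a lipoprotein bound by Trem2, by 1.16 ± 0.23 (adjusted p = 0.00748). H60b, a ligand of NKG2D, rose by 0.82 ± 0.20 (adjusted p = 0.0228), a call lost without control 1, control 4 or knockout 4 (adjusted p = 0.0557 to 0.0660). Fn1 was not called under an intensity trend with a robust prior (adjusted p = 0.0855), and Apoe was not called after cyclic loess (adjusted p = 0.0547). In the machinery that sheds and cleaves such receptors, 2 of 10 were higher and 0 lower, both of the gamma-secretase complex: Psen2 (0.69 ± 0.13, SE, adjusted p = 0.00534) and Aph1a (0.41 ± 0.10, adjusted p = 0.0226). Aph1a was lost without control 3, control 4 or knockout 4 (adjusted p = 0.0576 to 0.0678), and the count was then 1.

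Genes that earlier studies describe as induced in disease-associated microglia only where Trem2 is present rose. All 14 measured of these Trem2-dependent genes were higher, with a median of 1.42, also with any single array left out. Examples are the beta-glucan receptor Clec7a (1.59 ± 0.16, SE, adjusted p = 0.000288), the integrin Itgax (2.40 ± 0.26, adjusted p = 0.000290) and the oxygen-sensing factor Hif1a (1.05 ± 0.11, adjusted p = 0.000290). Of 8 genes described as rising without Trem2, 5 were higher and 0 lower, with a median of 0.59. These were the protease inhibitors Cstb (1.49 ± 0.17, adjusted p = 0.000433) and Timp2 (0.66 ± 0.09, adjusted p = 0.000784), the protease Ctsb (0.61 ± 0.10, adjusted p = 0.00188), Apoe and the ferritin chain Fth1 (0.46 ± 0.09, adjusted p = 0.00811). The count was 3 after quantile normalization, where Ctsb and Fth1 were not called, and 2 after cyclic loess, where 1 was lower. Both lists were written with earlier results of these data known, and whether they differ was not tested.

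**Figure D5:**
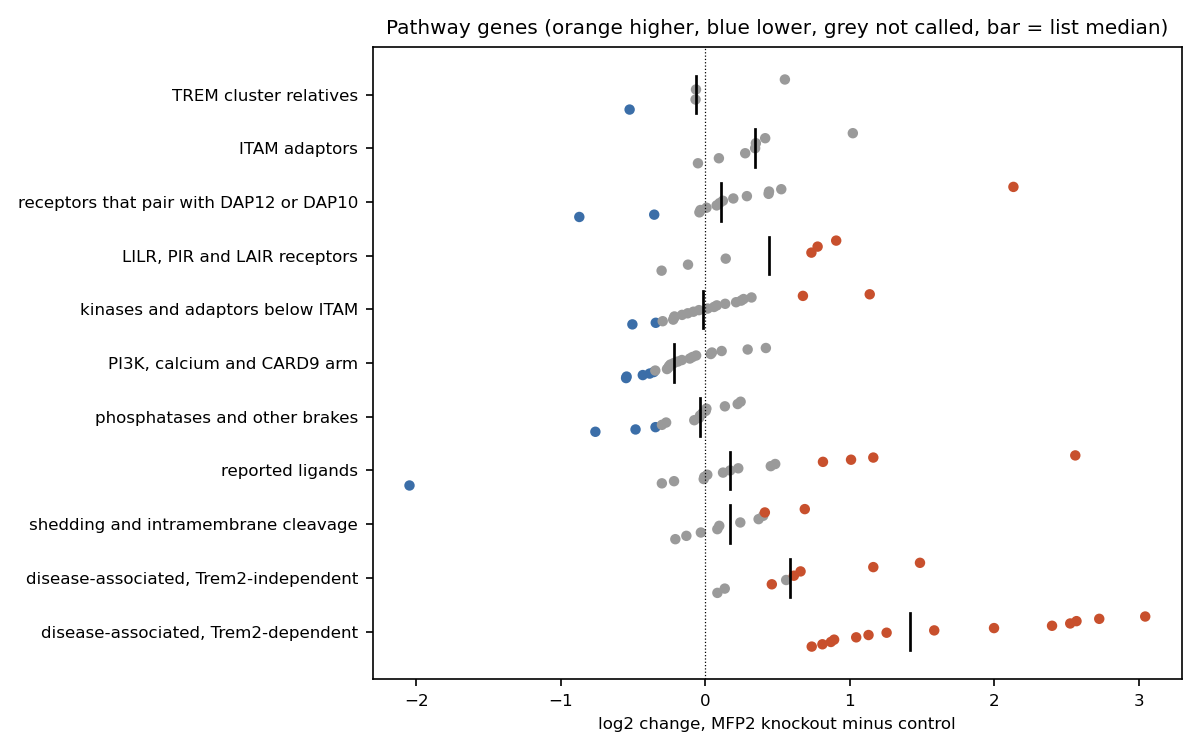
Log2 change (knockout minus control) of each measured gene in 11 pathway lists; a point is a gene (orange called higher, blue lower, grey not called) and the bar is the list median. All 14 Trem2-dependent genes lie to the right of 0, at a median of 1.42, while the median of the PI3K, calcium and CARD9 arm is -0.22.

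Markers of other cell types moved in both directions. Brain-border macrophage markers had 5 of 9 lower (Mrc1, Lyve1, Pf4, F13a1 and Stab1) and 2 higher (Ms4a7 and Colec12), and their log2 summed level was 10.3 to 10.9 in controls and 9.50 to 10.1 in knockouts. Of 6 monocyte markers measured, Fn1 and Itgal were higher and Ccr2 was lower (9.05 to 9.83 and 9.41 to 11.7), and of 6 dendritic cell markers Cd209a was lower (8.60 to 9.04 and 8.57 to 8.75). Gfap of the astrocyte list, Mbp of the oligodendrocyte list and Flt1 of the endothelial list were higher, and 0 of 5 neuron markers were called. The log2 summed level of the endothelial markers was 7.71 to 8.08 in controls and 8.27 to 8.98 in knockouts, and that of the oligodendrocyte markers 8.61 to 8.77 and 8.79 to 9.04. None of the marker values was at 0. Their part in the changes above was not tested.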

How the data were processed

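Sorted microglia gave total RNA, of which 5.775 ng per sample was amplified and hybridised to 1 array each, per the labels' protocols. The deposited values are log2 expression per probe set; RMA is the method that the submitters' processing notes name, without a version. That the logarithm has base 2 follows from the value range and from RMA's usual output. RMA can compress differences of dim genes. The table held 28874 probe sets for 8 arrays. Probe sets with 1 symbol in the platform annotation were kept (21789), and the probe set with the highest mean over the 8 arrays stood for its gene, giving 19938 genes. Knockout was compared with control by limma 3.58.1 in R 4.3.3 (moderated test, two-sided, without covariates or a filter on level). P-values were adjusted by Benjamini-Hochberg across the 19938 genes, and calls were made at 0.05. Rose, fell, higher and lower as calls mean past that threshold; standard errors are those of the fit. Pairs of genes were compared by exact permutation of their within-array differences over 70 assignments. The smallest two-sided p that this test allows is 0.0286.

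The genes and lists were chosen with earlier results of these data known. Named are the 9 genes, Hsd17b4, in each list up to 3 called genes by adjusted p (or the 1 with the lowest p), called markers, and the 4 nearest profiles to Trem2 and Lilrb4a. Lcp2, Rasgrp3, Pik3ca, Apoe, H60b and Fth1 complete small counts. B430306N03Rik, Treml1, Klrk1, Fcer1g, Ly6g, S100a8, S100a9, Ncr1 and Cd3e were added as neighbours, partners or cell markers after their values were seen. Older symbols were matched through RefSeq synonyms (4 genes). The script was also tested on simulated data. Alternatives are given in the closing section. Figures were drawn with matplotlib 3.10.9.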

Additional observations from a re-analysis of the deposited data

How the results depend on the processing

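Lilrb4a stayed higher and called in every alternative run (1.38 to 1.89). The count of 3 higher genes among the 9 was 2 to 3 with single arrays left out and 1 at an adjusted p under 0.01. The count of 1 lower gene stayed 1 with single arrays left out; it was 2 after quantile normalization, 3 after cyclic loess, and 0 without control 1, control 3 and knockout 2 together and at an adjusted p under 0.01. Changes that turned direction were those of Tyrobp, -0.10 after quantile normalization and -0.33 after cyclic loess, and of Trem1, -0.055 without control 1, -0.0027 without control 2, -0.03 without knockout 4 and -0.020 without control 1, control 3 and knockout 2 together; its range with single arrays left out was -0.055 to 0.15. After cyclic loess the within-array gaps were 0.35 for Trem2 and Tyrobp, 0.89 for Hcst and Tyrobp, -0.055 for Trem2 and Trem1 and -0.40 for Inpp5d and Plcg2, the last -0.48 after quantile normalization. With single arrays left out they were 0.10 to 0.21 for Trem2 and Tyrobp, 0.40 to 0.56 for Hcst and Tyrobp, 0.08 to 0.27 for Trem2 and Trem1, -0.21 to -0.15 for Inpp5d and Plcg2 and 1.15 to 1.52 for Lilrb4a and Trem2. Of the pathway genes, 30 higher became 26 to 33 and 14 lower became 9 to 16 with single arrays left out; 7 were lower without control 1, control 3 and knockout 2 together and 9 at an adjusted p under 0.01. Over all genes, 1905 calls became 1260 without knockout 3 and 1143 without control 1, control 3 and knockout 2 together. Same-numbered arrays shared little deviation from their group means (correlations 0.16, -0.065, 0.0059 and 0.0078), which does not settle whether the replicate numbers pair the arrays. With the replicate block 1855 genes and 4 of the 9 were called. The limma adjusted p was then 0.0263 for Hcst, 0.0159 for Treml2, 0.0143 for Inpp5d and 0.00107 for Lilrb4a. With that block 1 TREM relative was higher where 0 were. The causes of these moves were not tested, beyond the fewer arrays or the stricter threshold themselves. Because 4 arrays per group limit the precision, a gene that missed the threshold is not shown to be equal between the groups.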
